A study of Mus musculus with 8 samples.

Results

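The genes described here are 36 genes of protein folding in the endoplasmic reticulum (ER) and of the unfolded protein response, taken from a list of names among the 54532 genes in the count table. Expression was measured by 3′ mRNA sequencing in 8 libraries of mouse small intestinal organoids, self-organizing epithelial cultures grown from crypts. The 4 control libraries came from organoids without added RANKL, and the other 4 came from organoids treated with RANKL, the TNF family cytokine that activates the receptor RANK. The study used this comparison to ask how RANK stimulation alters the intestinal epithelium. No genetic change is named for either group, and the RANKL dose and duration for these libraries are not given in the sources used here. The study's methods give only a general age range for its mice, not the age behind these libraries. The labels present the 4 libraries of a group as separate samples but do not say that they came from separate cultures or mice, so the p-values below measure only the spread between these libraries.

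Proteins destined for secretion, the cell surface or lysosomes enter the ER through the SEC61 channel and are folded there by chaperones, by lectins that read sugar chains and by enzymes that form disulfide bonds. Chains that do not fold are returned to the cytosol and degraded by the proteasome, a route called ER-associated degradation. When unfolded chains accumulate, the sensors IRE1, PERK and ATF6 slow translation and switch on genes for folding and degradation, and this programme is important in secretory cells of the gut such as goblet and Paneth cells.

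Many of these genes are textbook targets of ATF6 and XBP1, which bind short promoter elements, so the promoter sequences were searched for such elements. RefSeq windows on GRCm38.p6, from 250 bases before to 50 bases after the transcription start, were at hand for 30 of the 36 genes, not including Hyou1, Manf, Derl1, Ern2, Atf6 and Sec61a1. The ER stress response element ERSE was searched on both strands as CCAAT, any 9 bases and CCACG. It was found in 10 of the 30 genes (33.3%), namely Hspa5, Hsp90b1, Dnajc3, Creld2, Calr, Canx, Pdia6, Ero1lb, Syvn1 and Derl3, and in 0.137% of all 27025 genes with a window. ERSE-II, searched as ATTGG, any 1 base and CCACG, was found in Dnajb11 and Herpud1, and in 0.0444% of all genes with a window. The core of a further XBP1 element, TGAC directly followed by GTGG, was in 0 of the 30 windows and in 0.714% of all genes. The 7 sites below are shown because they cover the 3 genes with an element that passed the test described further on (Hspa5, Dnajb11 and Herpud1) and 4 well-counted genes with an element that did not. Each is read 5′ to 3′ on the strand that carries the match, with 5 bases on either side and the fixed bases in capitals.
Hspa5, ERSE, chr2:34772020-34772048, plus strand: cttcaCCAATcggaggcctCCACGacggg
Calr, ERSE, chr8:84847070-84847098, plus strand: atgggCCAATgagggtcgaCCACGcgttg
Canx, ERSE, chr11:50325795-50325823, minus strand: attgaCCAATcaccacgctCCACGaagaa
Pdia6, ERSE, chr12:17266486-17266514, plus strand: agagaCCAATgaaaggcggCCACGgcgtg
Dnajc3, ERSE, chr14:118937822-118937850, plus strand: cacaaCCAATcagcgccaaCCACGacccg
Dnajb11, ERSE-II, chr16:22857847-22857867, plus strand: cggcgATTGGcCCACGcctgg
Herpud1, ERSE-II, chr8:94386372-94386392, plus strand: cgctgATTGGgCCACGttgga
The Hspa5 match lay 65 to 47 bases upstream of the RefSeq start and the Herpud1 match 52 to 42 bases upstream. The Hspa5 match falls inside the annotated gene span given further on, which begins before that RefSeq start. The Dnajb11 match lay downstream of the annotated start, at bases 8 to 18 of the transcribed sequence. Hsp90b1 carried 2 matches, from 212 to 194 and from 107 to 89 bases upstream. A match describes these letters only and was not tested for binding.

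The libraries differed in depth. Totals ran from 583663 to 7807298 counts. The median was 3911808 for control and 1613410 for RANKL, and control replicate 4 and RANKL replicate 1 were the shallowest. In those 2 libraries a single count is worth 1.71 and 1.63 CPM (counts scaled to a common library size). Across the transcriptome, 2587 of the 9971 genes with enough counts to test were past an adjusted p of 0.05 (edgeR quasi-likelihood test, Benjamini-Hochberg over all 9971 genes). Epithelial markers were present in both groups. The summed CPM of 5 M cell markers was at most 43.1 in control and at least 1686 in RANKL libraries, although the mature M cell marker Gp2 had 0 counts in all 8. The limit for 0 counts is 3 counts, between 0.384 CPM (control replicate 1) and 5.14 CPM (control replicate 4), for counting error only. Spib made up most of the M cell sum with RANKL, averaging 4.35 CPM in control and 1607.5 CPM in RANKL libraries. Ccl9, Tnfaip2 and Ccl20 averaged 30.9, 2.73 and 2.87 CPM in control and 76.4, 63.4 and 55.9 CPM in RANKL libraries. Of 4 markers of dividing cells, 2 were lower (Mki67 and Pcna), and of 4 stem cell markers 2 were lower (Lgr5 and Smoc2) and 1 was higher (Ascl2). Summed fibroblast, leukocyte and endothelial markers stayed at or under 8.62 CPM in every library. In such bulk libraries, fewer cells of a type and less RNA per cell cannot be told apart, and the part of cell composition in the values below was not tested.

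The folding and unfolded protein response genes were changed about as often as any gene, by small amounts and in both directions. Of the 36 genes, 34 had enough counts to test, and 9 were past the threshold, against a background of 25.9% of all genes tested. Of these, 4 were higher with RANKL (Hspa5, Hyou1, Dnajb11 and Edem1), where 13.6% of all genes were higher, and 5 were lower (Ero1l, Herpud1, Ddit3, Atf6 and Ern2), where 12.4% of all genes were lower. None of the 34 was past the threshold with a change over 2-fold, as 5.79% of all genes were. The median log2 fold change of the 34 genes was -0.07 (0.00 over all genes), and the median size of change was 0.15 on the log2 scale, against 0.26 over all genes. For 22 of the 34 genes the 95% interval of the fold change lay within 1.5-fold in either direction, as it did for 4301 of the 9971 genes tested. Interval width and size of change depend on counts, and these comparisons with all genes were not matched for expression level. The control and RANKL libraries did not overlap for 4 genes, which were Hspa5, Dnajb11 and Edem1 (higher) and Herpud1 (lower), and this was so for 24.6% of all genes tested. Counted over all 36 genes, the set took 1.03 to 1.14% of the counts of a library, and its summed level was 10869 ± 248 CPM in control and 11044 ± 132 CPM in RANKL libraries (SD, n = 4 each). Hspa5 made up the largest share of that sum.

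**Figure D1:**
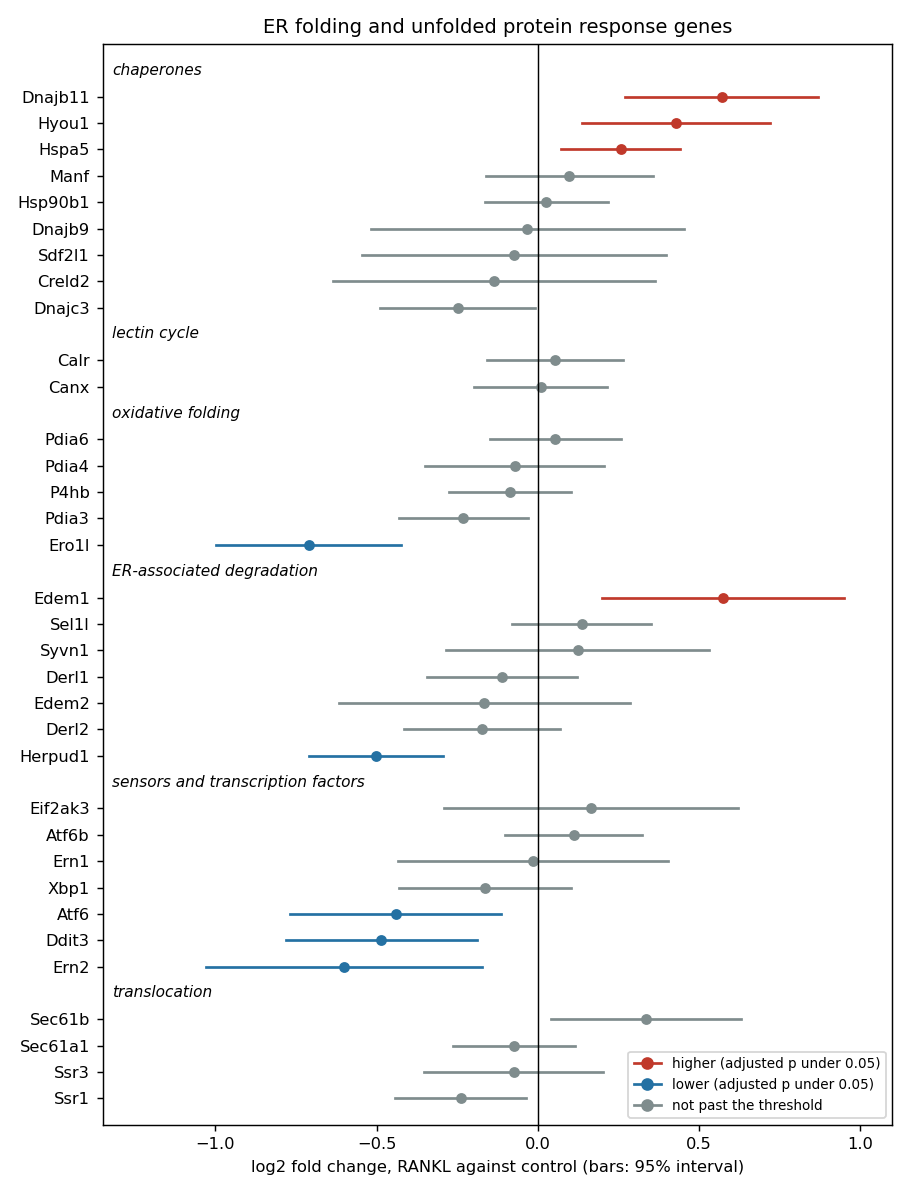
The log2 fold change of RANKL against control is plotted on the x axis for each of the 34 tested genes, grouped by role, with bars for the 95% interval from the edgeR fit. The 4 higher genes are in red and the 5 lower genes in blue, and the estimates run from -0.71 (Ero1l) to 0.57 (Edem1).

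**Figure D2:**
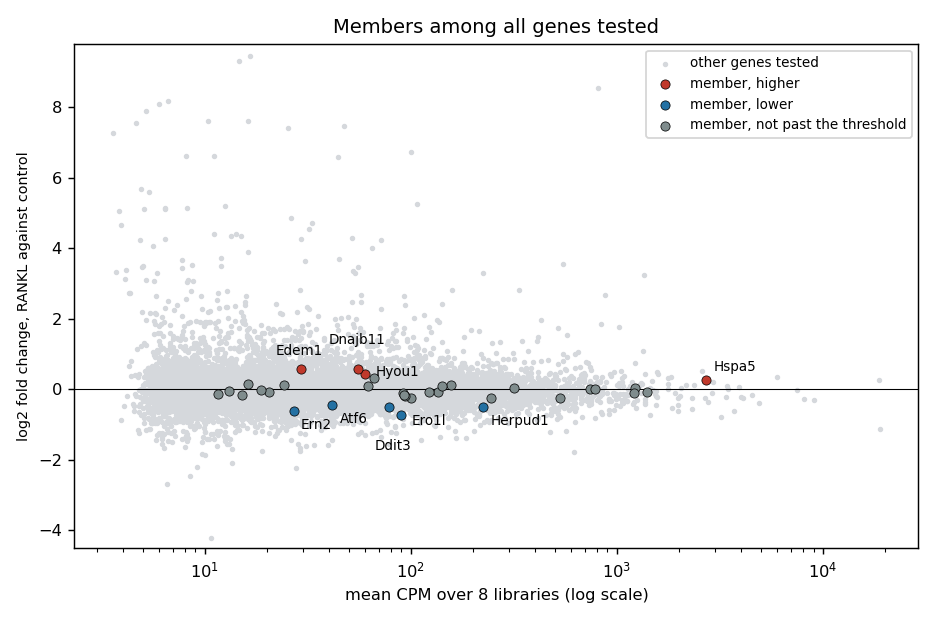
Each of the 9971 genes tested is placed by its mean CPM over 8 libraries (x axis, log scale) and its log2 fold change (y axis), with the 34 ER genes as larger points. The ER genes lie between -0.71 and 0.57, and their median size of change is 0.15, against 0.26 over all genes tested. The highest single gene reaches 9.45.

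Among the 9 chaperones and cofactors, 3 rose, none fell and 6 did not pass the test. The called share was 33.3%, where 25.9% of all genes were called and 13.6% were higher. The median log2 fold change of these 9 genes was 0.03. Hspa5 (ENSMUSG00000026864, chr2:34771970-34777547 on GRCm38, plus strand) encodes BiP, the HSP70 chaperone that is the central folding factor of the ER and holds the stress sensors inactive. Its levels were 2533, 2571, 2272 and 2516 CPM in control replicates 1 to 4 and 2893, 2951, 2896 and 3078 CPM in RANKL replicates 1 to 4. Every RANKL library was above every control library, by a modest margin (log2 fold change 0.26, SE 0.09, adjusted p = 0.034 in edgeR; exact two-sided permutation p = 0.0286, the smallest that 4 against 4 allows). The call was lost when control replicate 3 or any one of the RANKL replicates was left out, with adjusted p values of 0.060 to 0.083 in edgeR, while the fold change stayed between 0.22 and 0.28. It was also lost in edgeR with no filter on low counts (adjusted p = 0.18) and with sequencing depth added to the model (0.092). The same held after random thinning of all libraries to the shallowest (0.054) and without both shallow libraries (0.084).

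Dnajb11 (ENSMUSG00000004460, chr16:22857845-22879634 on GRCm38, plus strand) encodes ERdj3, a J-domain cofactor that delivers unfolded chains to BiP, and it showed the clearest rise. It stood at 50.0, 44.8, 42.3 and 32.7 CPM in control and at 79.1, 72.3, 51.1 and 69.2 CPM in RANKL libraries. The groups did not overlap, although RANKL replicate 3 was close to control replicate 1. The log2 fold change was 0.57 (SE 0.15, adjusted p = 0.0038 in edgeR), and the call held under all 19 alternatives, with values from 0.48 to 0.70. Hyou1, a large HSP70-like exchange factor for BiP, had 49.0, 57.4, 49.7 and 39.6 CPM in control and 88.8, 61.9, 56.3 and 74.1 CPM in RANKL libraries. RANKL replicate 3 lay just below control replicate 2, so the groups overlapped (log2 fold change 0.43, SE 0.14, adjusted p = 0.025 in edgeR). Without control replicate 1, RANKL replicate 1 or RANKL replicate 4 the adjusted p for Hyou1 was 0.054, 0.093 and 0.11. The Hyou1 call was also lost with DESeq2 (adjusted p = 0.074). In edgeR it was lost with no filter on low counts (0.058), with depth added to the model (0.13) and without both shallow libraries (0.15).

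The other chaperones had small estimates. Hsp90b1, which encodes the HSP90 family chaperone GRP94, had a log2 fold change of 0.03 (95% interval -0.16 to 0.22), and part of its exons are shared with Gm15344 and Gm25745 in the annotation. Manf, a secreted cofactor of BiP whose exons overlap those of Rbm15b, was at 0.10 (adjusted p = 0.62 in edgeR). Dnajc3, the J-domain protein p58IPK, had an estimate of -0.25 (adjusted p = 0.12 in edgeR), with 95.5 to 120 CPM in control and 82.3 to 97.5 CPM in RANKL libraries, and passed without control replicate 3, at -0.31 (adjusted p = 0.040). Dnajb9 (ERdj4, a BiP cofactor that represses IRE1), Sdf2l1 and Creld2 had low counts, with 6 to 9 in their lowest library, and intervals of about 0.5 on the log2 scale to either side. Sdf2l1, a partner of ERdj3, had its lowest level, 9.69 CPM, in RANKL replicate 1 and its highest, 28.9 CPM, in RANKL replicate 2.

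**Figure D3:**
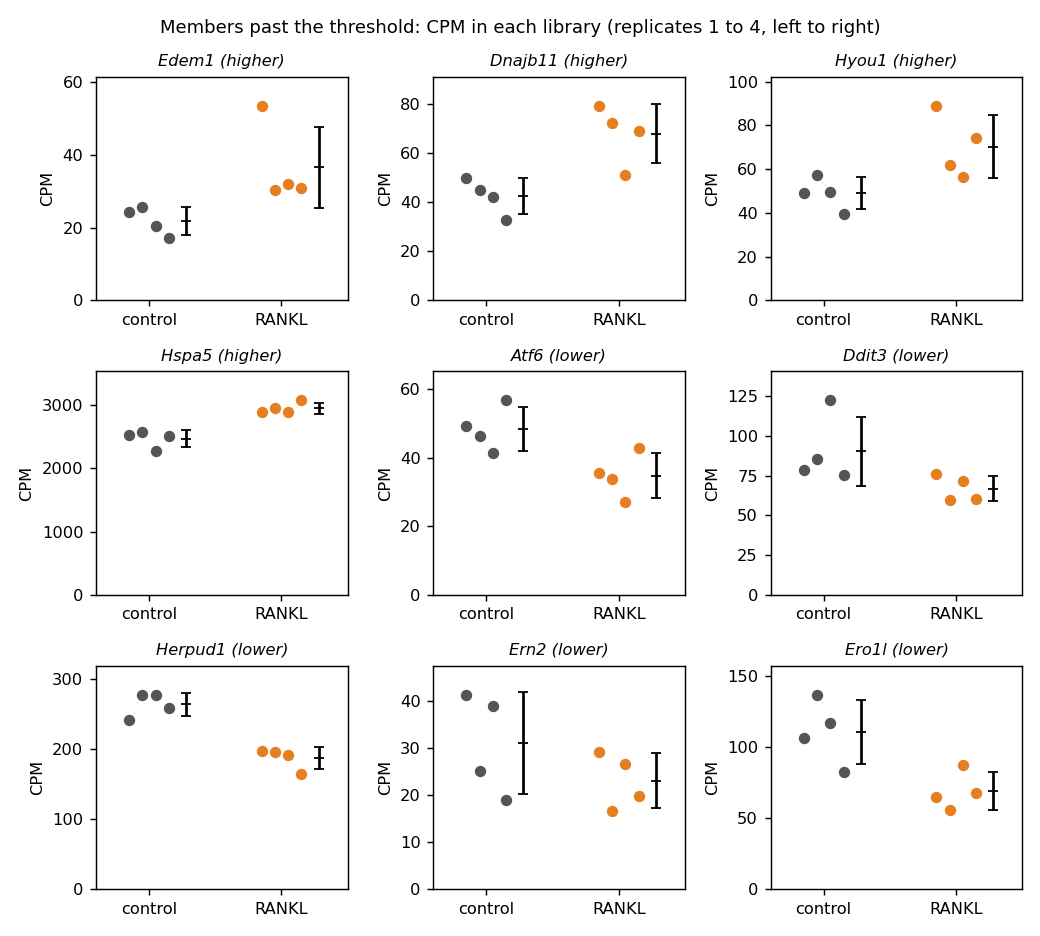
CPM in each library (y axis, from 0) is shown for the 9 genes past the threshold, with control replicates in grey, RANKL replicates in orange and the mean ± SD (n = 4) in black. For Hspa5, Dnajb11, Edem1 and Herpud1 the groups do not overlap, and the Edem1 mean is raised by RANKL replicate 1 at 53.3 CPM.

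Neither lectin chaperone passed the test, where 25.9% of all genes tested did. Calr (calreticulin) and Canx (calnexin), which hold newly made glycoproteins until they are folded, had log2 fold changes of 0.05 and 0.01. Calr ranged from 991 to 1392 CPM in control and from 1147 to 1305 CPM in RANKL libraries, and its 95% interval was -0.16 to 0.27. Canx ranged from 675 to 954 CPM in control and from 745 to 806 CPM in RANKL libraries, with an interval of -0.20 to 0.21. Both intervals overlap that of Hspa5 (0.07 to 0.44), and no difference between the genes was tested.

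Of the 6 genes of oxidative folding, 1 fell, 4 did not pass the test and 1 could not be tested. Ero1l (ENSMUSG00000021831, chr14:45283087-45318771 on GRCm38, minus strand) encodes the oxidase ERO1α, which recharges protein disulfide isomerase and is also known as a hypoxia-responsive gene. It stood at 106, 137, 117 and 82.5 CPM in control and at 64.6, 55.8, 87.1 and 67.6 CPM in RANKL libraries. Control replicate 4, the shallowest, was the only control library that fell below a RANKL library (replicate 3). This was the largest change among the 34 genes (log2 fold change -0.71, SE 0.14, adjusted p = 0.00027 in edgeR), and it passed the threshold under all 19 alternatives, with values from -0.86 to -0.56. Its homologue Ero1lb had only 0 to 16 counts per library and was not tested.

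None of the 4 disulfide isomerases passed the test with all 8 libraries at full depth. P4hb, the abundant isomerase PDI, ranged from 1168 to 1358 CPM in control and from 1126 to 1271 CPM in RANKL libraries (log2 fold change -0.09, 95% interval -0.28 to 0.10). Pdia6 was at 0.05, and Pdia4 was at -0.07 with control replicate 4 far above the other controls, at 205 CPM. Pdia4 also shares exons with Mir704. After all libraries were thinned by a single random draw to the depth of the shallowest, its estimate was -0.42 and passed the threshold (adjusted p = 0.046 in edgeR). Pdia3 (ERp57), which works on glycoproteins together with calnexin and calreticulin, had a log2 fold change of -0.23 (95% interval -0.43 to -0.03, adjusted p = 0.083 in edgeR), and passed without control replicate 1, at -0.28 (adjusted p = 0.049).

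Among the 8 genes of ER-associated degradation, 1 rose, 1 fell, 5 did not pass the test and 1 could not be tested. The called share of those tested was 28.6%, against 25.9% of all genes. Herpud1 (ENSMUSG00000031770, chr8:94386438-94395377 on GRCm38, plus strand) encodes a ubiquitin-like membrane protein that organizes the HRD1 degradation complex. It stood at 241, 277, 276 and 258 CPM in control and at 197, 195, 190 and 164 CPM in RANKL libraries. All RANKL libraries were below all control libraries. The log2 fold change was -0.50 (SE 0.10, adjusted p = 0.00035 in edgeR), and the call held under all 19 alternatives. Edem1, a lectin that helps to route misfolded glycoproteins to degradation, had 24.2, 25.8, 20.5 and 17.2 CPM in control and 53.3, 30.3, 31.8 and 30.8 CPM in RANKL libraries. The groups did not overlap, and RANKL replicate 1 was far above the other 3. The log2 fold change of 0.57 (SE 0.18, adjusted p = 0.020 in edgeR) fell to 0.43 (adjusted p = 0.088) without that library. The Edem1 call was also lost with DESeq2 (adjusted p = 0.062). In edgeR it was lost with depth added to the model (0.15) and without both shallow libraries (0.12).

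The core of the HRD1 complex did not pass the test in either direction. Syvn1, the ubiquitin ligase HRD1, and Sel1l, its adaptor, had log2 fold changes of 0.12 and 0.14. Sel1l was at 145 to 153 CPM in control and 142 to 181 CPM in RANKL libraries (95% interval -0.08 to 0.35). Derl1 and Derl2, derlins of the retrotranslocation channel, were at -0.11 and -0.17, and Edem2, a relative of Edem1 that trims mannose from glycoproteins, was at -0.17. Derl3, a derlin of specialized secretory cells, had 0 to 4 counts per library and was not tested.

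Of the 7 sensors and transcription factors, none rose, 3 fell and 4 did not pass the test. The called share was 42.9%, where 25.9% of all genes were called and 12.4% were lower. All 3 calls were lost with DESeq2 and with depth added to the model. Atf6, the membrane-bound factor that is cut in the Golgi to become a transcription factor, had 49.4, 46.4, 41.3 and 56.8 CPM in control and 35.5, 33.7, 27.1 and 42.8 CPM in RANKL libraries. Only RANKL replicate 4 reached above the lowest control. The log2 fold change was -0.44 (SE 0.16, adjusted p = 0.041 in edgeR), close to the threshold, and the call was lost without any one of control replicates 1, 2 and 4 or RANKL replicates 1, 2 and 3, with adjusted p values of 0.061 to 0.21. Its paralogue Atf6b was at 0.11 (95% interval -0.10 to 0.32).

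Ern2 encodes IRE1β, the form of the sensor IRE1 found in gut epithelium and known best from mucus-producing goblet cells. It had 41.3, 24.96, 38.8 and 18.9 CPM in control and 29.1, 16.5, 26.6 and 19.8 CPM in RANKL libraries. The groups overlapped widely, since the shallow control replicate 4 was lower than 3 of the 4 RANKL libraries. The edgeR call (log2 fold change -0.60, SE 0.21, adjusted p = 0.033) stood beside an exact two-sided permutation p of 0.286 on CPM, and with sequencing depth (log2 total) added to the model the value was -0.22 (adjusted p = 0.64). The call was also lost without control replicate 1, RANKL replicate 2 or RANKL replicate 4, with adjusted p values of 0.12 to 0.15 in edgeR. Summed levels of 7 goblet cell genes ran from 2696 to 3353 CPM in control and from 3078 to 3311 CPM in RANKL libraries, and 1 of the 7 passed the test, the goblet cell factor Spdef (log2 fold change -0.57, adjusted p = 0.031 in edgeR). The part of goblet cell number in the Ern2 value was not tested.

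The other IRE1 form, Ern1 (IRE1α), and the kinase PERK, encoded by Eif2ak3, were measured at low levels. Ern1 had 17.8, 19.3, 16.7 and 20.6 CPM in control and 24.2, 19.3, 18.3 and 13.7 CPM in RANKL libraries. The RANKL libraries spanned the whole control range (log2 fold change -0.01, 95% interval -0.43 to 0.40, adjusted p = 0.97 in edgeR). Eif2ak3 had 14.5, 12.3, 13.4 and 24.1 CPM in control and 17.8, 17.2, 14.6 and 15.9 CPM in RANKL libraries. Control replicate 4 was the highest library and the other controls were among the lowest, and the estimate was 0.17 (95% interval -0.29 to 0.62, adjusted p = 0.63 in edgeR).

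Xbp1 is the transcription factor whose mRNA is spliced by IRE1, a step that 3′ counts do not show. It had 117, 108, 77.8 and 82.5 CPM in control and 96.9, 86.7, 86.1 and 87.3 CPM in RANKL libraries. The RANKL libraries all lay within the control range (log2 fold change -0.16, SE 0.13, adjusted p = 0.39 in edgeR). Ddit3 encodes CHOP, the factor downstream of PERK that is linked to cell death, and had 78.3, 85.6, 122 and 75.7 CPM in control and 75.9, 59.9, 71.4 and 60.4 CPM in RANKL libraries. RANKL replicate 1 was just above control replicate 4, and control replicate 3 was well above all others. The log2 fold change of -0.49 (SE 0.14, adjusted p = 0.012 in edgeR) went to -0.30 (adjusted p = 0.078) without control replicate 3, and the adjusted p was 0.058 without RANKL replicate 2 and 0.058 without RANKL replicate 4. A second entry with the same symbol and shared exons had 0 counts.

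None of the 4 translocation genes passed the test with all 8 libraries, where 25.9% of all genes tested did. Sec61a1 and Sec61b encode subunits of the channel, and Ssr1 and Ssr3 subunits of the associated TRAP complex. Sec61a1 ranged from 1269 to 1553 CPM in control and from 1301 to 1427 CPM in RANKL libraries (log2 fold change -0.07, 95% interval -0.26 to 0.12). Sec61b was at 0.34 (adjusted p = 0.086 in edgeR) with RANKL replicate 4 the highest library at 94.5 CPM, Ssr1 was at -0.24 (adjusted p = 0.075) and Ssr3 at -0.07. Sec61b passed the threshold in 3 alternatives, at 0.46 without control replicate 1 (adjusted p = 0.023), 0.45 without RANKL replicate 3 (0.036) and 0.54 after thinning to the shallowest library (0.037). Ssr1 passed without control replicate 3, at -0.27 (adjusted p = 0.035).

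**Figure D4:**
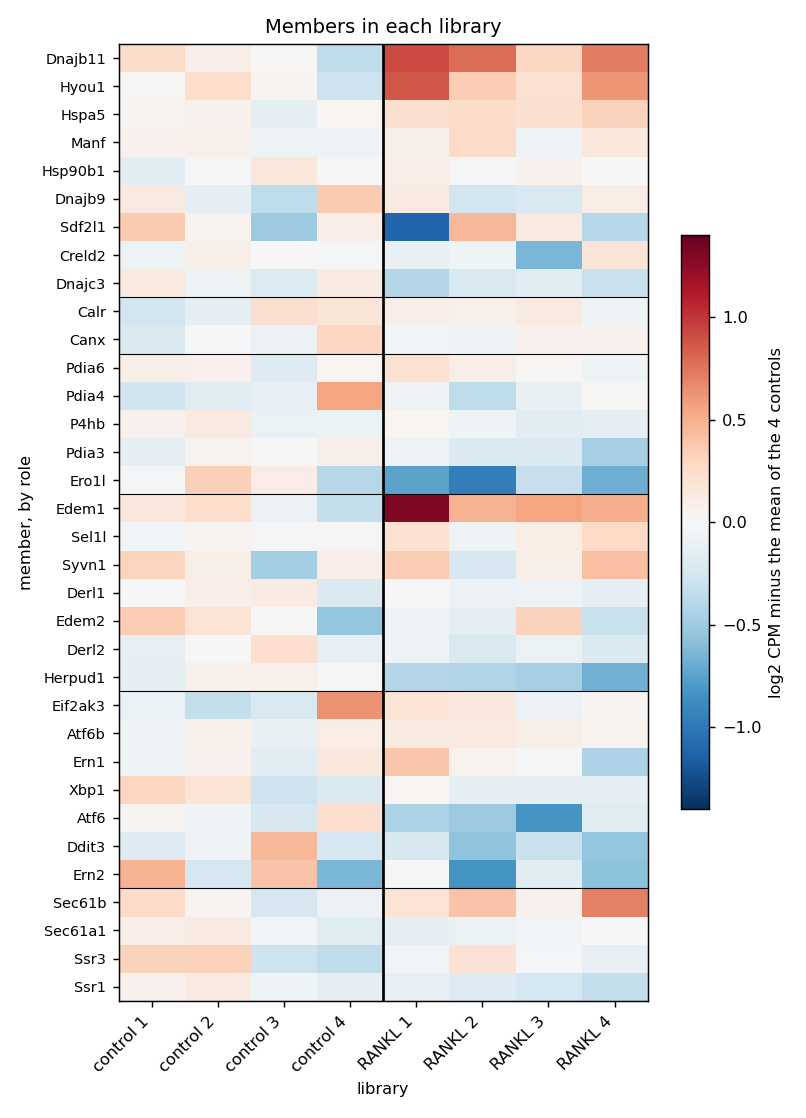
Rows are the 34 tested genes by role and columns the 8 libraries, and colour gives log2 CPM minus the mean of the 4 control libraries. The 4 higher genes are above 0 and the 5 lower genes below 0 in all 4 RANKL libraries, Ern2 in replicate 1 only slightly, and Edem1 in RANKL replicate 1 is the strongest colour, at 1.30.

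Within the set, the libraries did not shift as a whole. The median deviation of the 34 genes from the control mean was between -0.07 and 0.06 on the log2 scale in every library. The spread of the deviations (SD over genes) was 0.14 to 0.28 in control and 0.27 to 0.43 in RANKL libraries. Control libraries are measured here against their own mean and so deviate less by construction.

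The genes with a promoter element went both ways as well. Of the 12 genes with ERSE or ERSE-II, 10 were tested, and 2 were higher (Hspa5 and Dnajb11), 1 was lower (Herpud1) and 7 did not pass, with a median log2 fold change of 0.04. These 3 calls of 10 are near the share of 25.9% over all genes tested. Dnajb11, which was higher, and Herpud1, which was lower, share the fixed ERSE-II bases and differ at the base between them. Of the 18 genes with a window and neither element, 1 was higher (Edem1) and 2 were lower (Ero1l and Ddit3), which is 16.7%, with a median of -0.07.

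A wider list of 118 further genes of ER folding, degradation, stress signalling, translocation and export was also called about as often as all genes. Of 109 tested, 14 were higher and 12 lower, which is 23.9% against 25.9% of all genes tested, with a median log2 fold change of -0.02. The groups did not overlap for 16 of the 109, against 24.6% of all genes. Among 21 other folding genes, Dnajc10 (ERdj5, a disulfide reductase) averaged 116 ± 8.18 CPM without and 197 ± 15.5 CPM with RANKL (SD, n = 4 each; log2 fold change 0.75, adjusted p = 1.7e-06 in edgeR). Pdia5 rose by 0.74 (adjusted p = 0.0099), while Prkcsh (-0.39), a subunit of glucosidase II, and Mogs (-0.34), which is glucosidase I, were lower. The glucosidases trim the sugars that calnexin and calreticulin read. Among 18 other degradation genes, H13 (signal peptide peptidase), Ube2g2 (a ubiquitin-conjugating enzyme), Nploc4 (a cofactor of the p97 extraction motor) and Ube2j1 were higher and Aup1 was lower. These 5 calls are 27.8%, near the 25.9% of all genes tested. H13 had the firmest of these calls (0.50, adjusted p = 0.00031 in edgeR), whereas the Ube2g2 groups overlapped widely and its estimate was 0.09 after all libraries were thinned to the depth of the shallowest.

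The 19 other stress signalling genes held the largest changes. Of these, 4 were higher and 1 was lower, which is 26.3%, near the 25.9% of all genes tested. Bcl2l11, which encodes the pro-apoptotic protein BIM, averaged 12.9 ± 2.43 CPM without and 50.6 ± 11.6 CPM with RANKL (SD, n = 4 each), with no overlap (log2 fold change 1.86, adjusted p = 3.4e-09 in edgeR). Bbc3 (PUMA), also pro-apoptotic, rose by 0.99 (adjusted p = 5.1e-05), and Traf2, an adaptor of IRE1 and of TNF family receptors including RANK, rose by 0.87 (adjusted p = 0.00011). Ppp1r15a (GADD34), which restores translation after PERK signalling, rose by 1.06 (adjusted p = 0.012) from low counts. Its RANKL replicate 1, at 24.2 CPM, was well above the other RANKL libraries, and without that library or without control replicate 1 the gene no longer passed (adjusted p = 0.059 to 0.071). Atf4, the transcription factor made when PERK slows translation, was lower, from 1204 ± 81.6 to 938 ± 93.1 CPM (log2 fold change -0.36, adjusted p = 0.0051 in edgeR).

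Among 30 other genes of translocation and glycan transfer, 4 rose and 4 fell, which is 26.7%, near the 25.9% of all genes tested. Sec11c of the signal peptidase rose by 0.58, Srp14 of the signal recognition particle by 0.55 and Tmem258 of the oligosaccharyl transferase by 0.48. The catalytic subunits of that transferase parted, with Stt3a higher (0.37) and Stt3b lower (-0.37), and Magt1, which belongs with STT3B, was lower too (-0.32). Srprb (-0.54), of the receptor for the signal recognition particle, and Sec63 (-0.30) were also lower. Among 21 genes of coat vesicles and ER export none rose and 4 fell (19.05%, against 25.9% of all genes called in either direction and 12.4% lower), namely Sec24a (-0.43) of the COPII coat, the cargo lectin Lman1 (-0.42), Sar1b (-0.38), the GTPase that starts the coat, and Tmed2 (-0.37). Among the genes named here, the groups did not overlap for Sec11c and Tmem258 (higher) and for Stt3b, Magt1, Lman1, Sec24a and Tmed2 (lower).

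Of these 26 further calls, 12 held whichever single library was left out, namely Dnajc10, Pdia5, H13, Atf4, Bbc3, Bcl2l11, Traf2, Sec11c, Stt3b, Tmem258, Sec24a and Lman1. Other alternatives removed some of them. Pdia5 was lost with DESeq2, with depth added to the model and after thinning to the shallowest library. Sec24a was lost with depth added and after thinning, and Tmem258 and Lman1 after thinning. A single library decided Prkcsh and Srp14 (RANKL replicate 4, adjusted p = 0.051 and 0.0998 in edgeR without it) and Magt1 (RANKL replicate 1, 0.064). Aup1 was lost without control replicate 3 or RANKL replicate 4, with adjusted p up to 0.13. Mogs (control replicates 1 and 2, RANKL replicates 1 and 3), Nploc4 (control 1 and 3, RANKL 1 and 3), Stt3a (control 2 and 3, RANKL 1 and 4) and Tmed2 (control 1 and 4, RANKL 1 and 4) each depended on 4 libraries, with adjusted p up to 0.096, 0.18, 0.15 and 0.091. Ube2g2 (all but control 4, RANKL 1 and RANKL 3), Sec63 (all but control 2, control 4 and RANKL 1), Ube2j1 (all but control 1 and RANKL 4), Srprb (all but control 1 and control 4) and Sar1b (all but control 4 and RANKL 2) depended on most libraries, with adjusted p up to 0.22, 0.12, 0.21, 0.099 and 0.14.

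**Figure D5:**
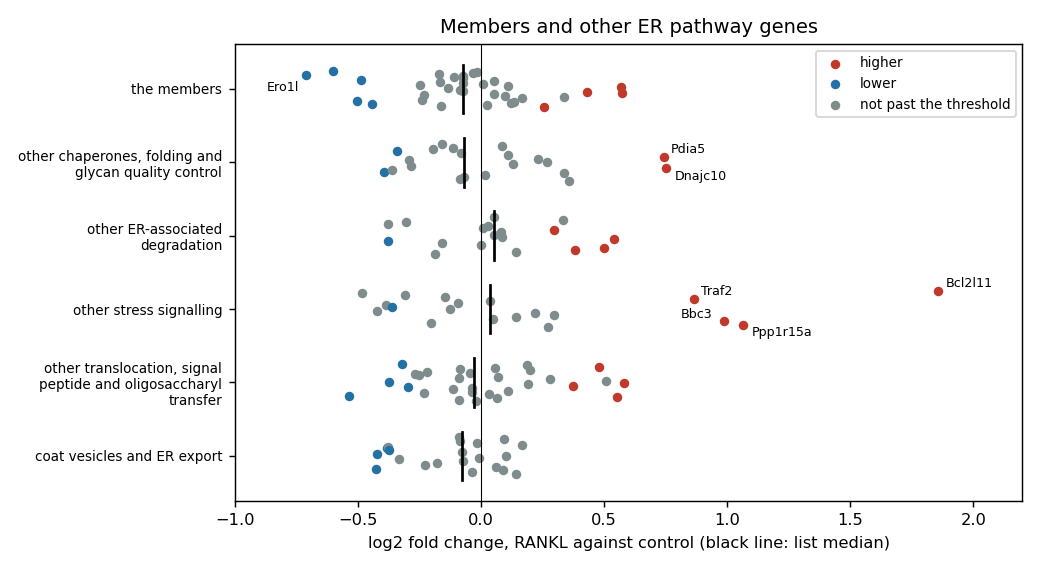
Log2 fold changes (x axis) of the 34 tested ER genes and of 5 lists of further pathway genes (y axis), each point a gene, with a black line at the list median. List medians lie between -0.08 and 0.05, and the changes above 0.8 are all stress signalling genes (Traf2, Bbc3, Ppp1r15a and Bcl2l11).

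The number of called ER genes depended on the test and on single libraries. With DESeq2, the test named in the study's methods, 4 of the 34 genes passed (2 higher and 2 lower), and with depth added to the model 3 passed. Calls over all genes fell as well, from 2587 to 1926 with DESeq2 and to 1827 with depth added. Without both of the shallow libraries, control replicate 4 and RANKL replicate 1, 5 passed (1 higher and 4 lower), and 2279 of all genes did. Dnajb11, Ero1l and Herpud1 were the 3 genes whose calls held under every alternative at a threshold of 0.05.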

How the data were processed

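Libraries were made with a 3′ mRNA kit and sequenced as 50-base single reads. Per the study's methods and the labels, the authors trimmed reads with BBDuk (v38.06), removed abundant sequences with bowtie2 (v2.3.4.1), aligned to GRCm38 with STAR (v2.6.0c) and counted strand-specifically on Ensembl release 94 genes with featureCounts (v1.6.2). The deposited values are raw counts per gene, with no normalization. Counts near a 3′ end do not compare levels between genes, and counting error does not cover PCR copies.

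From these counts, edgeR 4.0.16 (R 4.3.3) was fitted with TMM factors and the default low-count filter. The quasi-likelihood test was adjusted by Benjamini-Hochberg over 9971 genes. The SE is the size of the log2 fold change over the square root of F. Printed CPM use TMM-scaled totals. CPM were also compared by exact permutation, two-sided, over all 70 assignments. Alternatives were limma 3.58.1 voom, DESeq2 1.42.0, other scalings and filters, thinning, a depth covariate, a replicate block and each library left out. Thinning was a single random draw, so every value after thinning rests on that draw. Leaving out both shallow libraries was added after the data were seen. On simulated data for this comparison, edgeR recovered 197 of 200 changed genes among 10017 with 11 false calls. Those genes were changed by 2-fold or more, above a minimum level and at a fixed dispersion. The simulation therefore does not measure recovery of smaller changes such as those of the called members. Summaries used pandas 2.3.3 (Python 3.11.15).

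The members and lists were chosen with earlier results of these data known. All 36 members are accounted for. Named in full are those past the threshold plus Hspa5, Xbp1, Ddit3, Ern1, Ern2, Atf6 and Eif2ak3, and from each further list up to 3 higher and 3 lower genes with the largest change at a mean of at least 5 CPM. Traf2, Ube2j1, Stt3a, Sec63 and Tmed2 were added after their values were seen. Shared exons come from GENCODE M21 and promoters from RefSeq (GRCm38.p6), matched by symbol or synonym.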

Additional observations from a re-analysis of the deposited data

Results flagged for a closer look

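In 6 of the 114 groups of 4 libraries examined for the named genes, 1 library stood apart from the other 3, with a gap to its neighbour, relative to the group's range, beyond Dixon's 95% critical value. Chance alone gives about 1 in 20 groups, or 5.7 of 114. Edem1 stood at 53.3 CPM in RANKL replicate 1, with the next RANKL library at 31.8 CPM, and its call was lost without that library. Xbp1 was at 96.9 CPM in the same library, next to 87.3 CPM. Pdia4 was at 205 CPM in control replicate 4, next to 128 CPM. Sar1b was at 60.6 CPM in RANKL replicate 2, next to 47.2 CPM. For the genes with too few counts to test, Ero1lb was at 4.03 CPM in control replicate 2 and Derl3 at 1.72 CPM in control replicate 4, the latter from 1 count.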

How the results depend on the processing

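Under 19 alternatives none of the 55 named genes changed sign while past the threshold. The 9 called members became 4 with the DESeq2 Wald test (2 higher, 2 lower), 3 with depth (log2 library total) as a covariate (1 higher, 2 lower), 3 at an adjusted p of 0.01 (1 higher, 2 lower) and 5 without both shallow libraries (1 higher, 4 lower). With no filter on low counts 2 members were higher. Leaving out each library in turn gave 5 to 9 members, with 1 to 4 higher and 2 to 6 lower, and 1853 to 2601 of all genes. Counts over all genes moved from 2587 to 1427 after thinning to the shallowest library and 1636 at 0.01. They were 1926 with DESeq2, 1827 with the covariate and 2279 without both shallow libraries. The 26 other pathway genes became 16 with DESeq2, 11 with the covariate, 10 after thinning and 13 at 0.01. Members with the DESeq2 size factors, limma-voom or at least 10 counts in every library stayed at 9 in number. In at least 1 alternative, 5 members not called otherwise passed (Dnajc3, Pdia3, Pdia4, Sec61b and Ssr1). The median of all genes shifted by 0.10 with DESeq2 and by -0.11 with no filter. Deviations from the group mean correlated at -0.03 to 0.10 between libraries of the same number and at -0.13 to 0.09 between other pairs. Such values cannot show whether libraries of the same number share a culture or mouse. With the replicate number as a block 8 members and 2610 genes passed, Ern2 not among them (-0.46, adjusted p = 0.065 in edgeR). Depth limits what the low-count members can show: 4 of the 34 had fewer than 10 counts in a library.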
